A study of Rattus norvegicus with 19 samples.

Results

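Sterol and fatty acid synthesis genes were followed through 4 stages of the rat Leydig cell, the testosterone-making cell of the testis, and in bone stem cells. They are 32 named enzymes and regulators, of which 31 have a probe set with that symbol alone, out of 14217 genes on the array. Hmgcs1, an early enzyme of the mevalonate pathway, was not analysed here. Where a gene has several probe sets, the brightest by its mean over all arrays stands for it. The genes themselves were given by name. Expression was measured on Affymetrix arrays in 19 samples of Sprague-Dawley rat cells: 5 of stem Leydig cells, 3 of progenitor Leydig cells, 4 of immature ones, 4 of adult ones and 3 of bone stem cells. No treatment, genotype, age, isolation or culture is given in the sources used here.

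Animal cells build cholesterol from acetyl-CoA. Condensation steps lead to mevalonate, mevalonate is turned into isoprene units and farnesyl diphosphate, and farnesyl diphosphate is joined into squalene, which is closed and trimmed to the sterol ring. The same acetyl-CoA feeds fatty acid synthesis, whose products are then lengthened and desaturated. Both pathways are driven by SREBP transcription factors, which Scap carries out of the endoplasmic reticulum when sterols are low and which the Insig proteins hold back when sterols are high. Leydig cells use cholesterol as the precursor of testosterone and can make it, take it up or free it from stored esters.

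The first count of these genes called in a comparison stands beside the share of all genes called there. Values are signals on the array's linear scale, and a fold is the ratio of mean signals. A log2 change is the difference of group means of log2(signal + 16), which understates the change of dim genes. It was tested with limma and called at an adjusted p under 0.05. The shares of all genes carry no filter on signal. On each array 29.1% to 47.3% of probe sets had a signal under 16, and such dim probe sets may be called less readily. How far this lowers the shares of all genes was not tested. Signals of different genes are not compared with each other, because each probe set has its own brightness. Each sample is a bulk sample, so fewer cells of a type and less RNA per cell cannot be told apart.

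The labels were checked against marker genes. The summed signal of 8 Leydig markers such as Star, Cyp11a1 and Insl3 was 370.0 to 1600.3 on stem Leydig arrays, 14366 to 22449 on progenitor, 12355 to 22836 on immature, 21318 to 32220.1 on adult and 83.4 to 614 on bone stem arrays. In stem Leydig cells 6 of the 8 markers averaged under a signal of 16, while Star averaged 739.6 ± 480.2 (SD, n = 5). Genes of other cells moved between the groups as well. The sum of 8 leukocyte markers was 163 to 221 on stem Leydig arrays, 3657 to 5088 on progenitor, 2062 to 4754 on immature, 957 to 2331 on adult and 8880.2 to 10453 on bone stem arrays. Progenitor replicate 3 had an actin 3' to 5' ratio of 6.35, a sign of RNA quality, against 1.29 and 1.50 in the other progenitor arrays. Immature replicate 4 stood apart from its group in the sum of 5 endothelial markers, 593, against 180.4 to 233 on the other immature arrays. Immature replicate 1 stood apart in the Leydig sum, 12355, against 21036 to 22836.

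Of the 31 genes, 24 differed somewhere among the 4 Leydig stages (moderated F-test in limma, adjusted p under 0.05), which is 77.4% of them, against 63.9% of all genes. By role these were 4 of 7 genes of the mevalonate and prenyl steps, 10 of 11 of the squalene and sterol ring steps, 5 of 6 regulators and carriers and 5 of 7 of fatty acid synthesis. Pmvk, Mvd, Ggps1, Hsd17b7, Insig2, Acaca and Elovl6 did not pass. Of the 24 that differed, 14 had their highest mean in adult, 6 in progenitor, 4 in stem and 0 in immature Leydig cells. Adult cells thus held the highest mean of 58.3% of these genes, and of 28.5% of the 9084 genes of the array that differed.

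**Figure D1:**
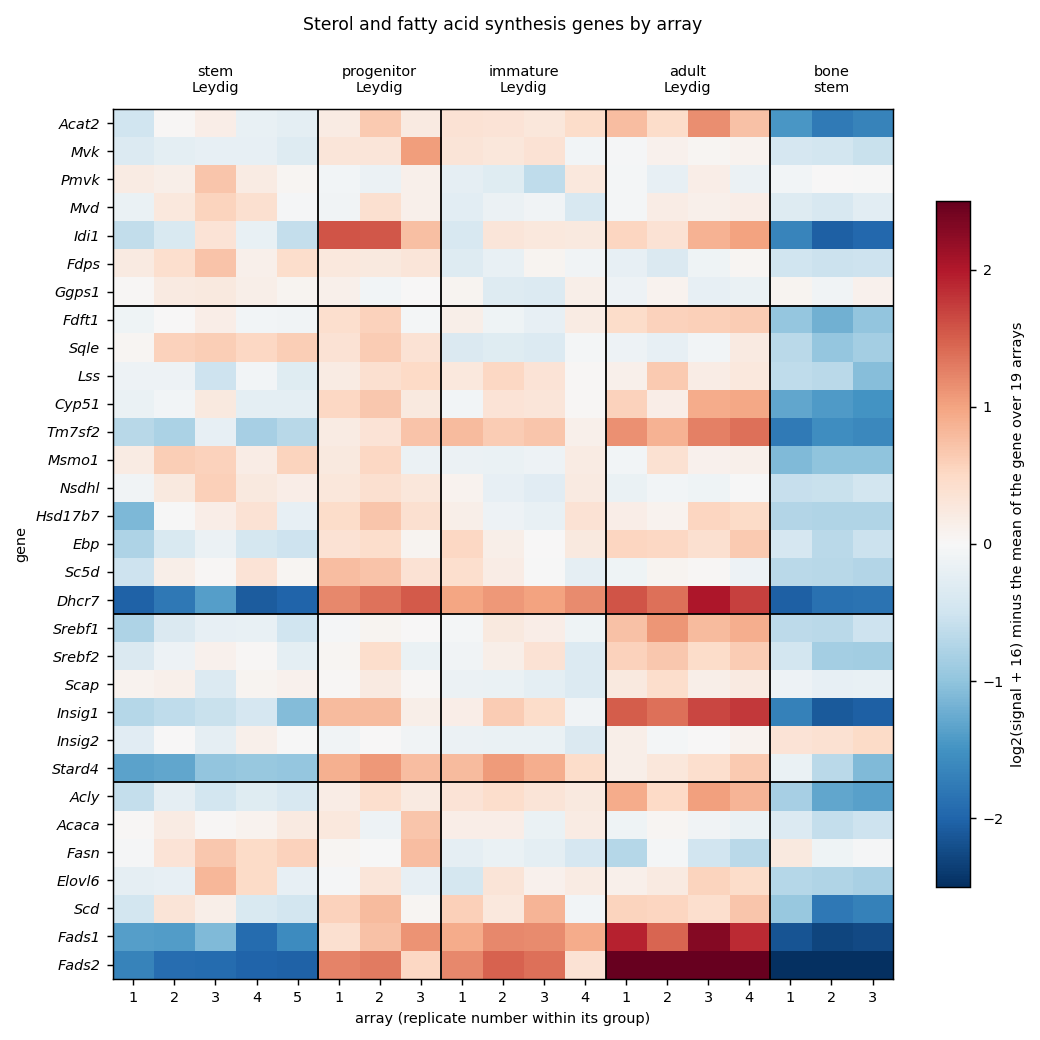
Each row is 1 of the 31 genes and each column 1 of the 19 arrays, ordered by group and replicate. Colour is log2(signal + 16) minus the mean of that gene over the 19 arrays, with colours held at 2.5 either way, which Fads2 passes. Dhcr7, Fads1, Fads2, Insig1 and Tm7sf2 are blue in the stem Leydig arrays and red in the adult arrays, and most rows are blue in bone stem arrays.

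Promoter sequences are shown for the 4 genes with the largest log2 changes in adult against stem cells, which also rose at the first step. Stard4 and Idi1, not shown, rose more than Insig1 at that step (log2 changes of 2.02, 1.59 and 1.26). They are the 250 bases before the annotated start, from RefSeq on GRCr8, written 5′ to 3′ along the gene. Dhcr7 lies at chr1:208444184-208444433, plus strand, Fads1 at chr1:216252442-216252691, plus strand, Fads2 at chr1:216172034-216172283, minus strand and Insig1 at chr4:8057770-8058019, minus strand. Capitals mark matches to the NF-Y box CCAAT (which reads ATTGG on the other strand), to the Sp1 box core GGGCGG (or CCGCCC on the other strand) and to the E-box CACGTG.
Dhcr7: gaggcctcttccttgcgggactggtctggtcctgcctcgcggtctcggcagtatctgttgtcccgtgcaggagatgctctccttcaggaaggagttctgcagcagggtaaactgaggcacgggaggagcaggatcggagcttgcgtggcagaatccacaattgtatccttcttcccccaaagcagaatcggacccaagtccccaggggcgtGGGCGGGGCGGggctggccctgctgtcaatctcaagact
Fads1: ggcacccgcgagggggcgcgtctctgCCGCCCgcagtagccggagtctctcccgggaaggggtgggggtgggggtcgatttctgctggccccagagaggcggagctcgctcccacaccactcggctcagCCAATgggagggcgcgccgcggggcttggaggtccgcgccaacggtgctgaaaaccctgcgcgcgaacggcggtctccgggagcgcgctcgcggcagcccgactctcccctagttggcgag
Fads2: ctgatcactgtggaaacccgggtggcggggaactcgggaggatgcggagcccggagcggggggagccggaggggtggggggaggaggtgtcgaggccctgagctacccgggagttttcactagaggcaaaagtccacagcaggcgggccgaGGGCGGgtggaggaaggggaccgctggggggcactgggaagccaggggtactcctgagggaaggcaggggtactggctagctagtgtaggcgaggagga
Insig1: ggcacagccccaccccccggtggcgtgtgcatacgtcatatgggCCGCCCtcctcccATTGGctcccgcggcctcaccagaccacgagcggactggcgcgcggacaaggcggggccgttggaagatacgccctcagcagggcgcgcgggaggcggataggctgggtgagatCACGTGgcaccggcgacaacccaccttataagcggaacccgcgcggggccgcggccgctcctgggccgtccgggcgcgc

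The Dhcr7 window holds a pair of overlapping Sp1 matches, the Fads1 window an Sp1 and an NF-Y match, the Fads2 window a single Sp1 match, and the Insig1 window a match to each of the 3 motifs. The Idi1 window, not shown, holds 2 NF-Y matches and 0 Sp1 matches. RefSeq promoters matched 24 of the 31 genes. The NF-Y box was present in 18 of these 24 genes (75.0%), and in 34.0% of all 33469 windows of that length. A gene was counted if any of its windows held the motif, while all windows were counted singly, so these shares have unlike units. The Sp1 box core was present in 19 of 24 (79.2%), and in 30.5% of all windows. The E-box was present in 3 of 24 (12.5%), and in 5.59% of all windows. TCACNCCAC, a sterol element searched in this 1 spelling, was in 0 of 24 and in 0.970% of all windows. These are matches of letters on both strands within the windows.

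Among the 7 measured genes of the mevalonate and prenyl steps, Idi1 moved most. Idi1, the isomerase that makes the 2 isoprene units interchangeable, had signals of 288, 344, 582, 394 and 293 on the stem Leydig arrays, 1384, 1363 and 776 on the progenitor arrays, 341, 563, 543 and 540.3 on the immature arrays, 668, 585, 843 and 926 on the adult arrays and 133, 98.4 and 105 on the bone stem arrays. All 3 progenitor arrays lay above every stem and immature array, and the adult arrays lay above the stem arrays but overlapped the progenitor ones. Idi1 was 3.09-fold higher in progenitor than in stem cells (a log2 change of 1.59 ± 0.23 SE, adjusted p = 1.34e-05). It then fell in immature cells, which averaged 497 ± 105 (SD, n = 4), against 1174 ± 346 in progenitor cells (SD, n = 3), with a log2 change of -1.19 ± 0.24 SE, adjusted p = 0.0153. This call was lost without immature replicate 1, the lowest of its group (adjusted p = 0.0561), without progenitor replicate 1 (adjusted p = 0.0863) or without progenitor replicate 2 (adjusted p = 0.102). The other probe set of Idi1 was not called at that step (a log2 change of -0.69, adjusted p = 0.285).

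Acat2, the cytosolic thiolase that joins acetyl-CoA units at the start of the pathway, had signals of 333, 485, 540.0, 416 and 399 on the stem Leydig arrays, 554, 761 and 561 on the progenitor arrays, 614, 609.9, 584 and 657 on the immature arrays, 823, 657, 1085 and 806 on the adult arrays and 164, 129 and 138 on the bone stem arrays. The bone stem arrays were below all others, and the stem Leydig arrays were below the progenitor and adult arrays. It was higher in progenitor than in stem cells (a log2 change of 0.51 ± 0.16 SE, adjusted p = 0.0155) and in adult than in stem cells (a log2 change of 0.93 ± 0.15 SE, adjusted p = 2.41e-05). Without progenitor replicate 2 the first of these had an adjusted p of 0.123. Mvk, mevalonate kinase, averaged 82.6 ± 4.43 in stem Leydig, 162 ± 55.9 in progenitor, 123 ± 17.9 in immature, 107 ± 4.94 in adult and 69.0 ± 3.86 in bone stem cells (SD, here and below, with the n above). It rose in progenitor cells relative to stem cells, with a log2 change of 0.81 ± 0.15 SE, adjusted p = 0.000183, and was lower in adult than in progenitor cells (a log2 change of -0.50 ± 0.16 SE, adjusted p = 0.0232). Progenitor replicate 3 held its highest signal, 227, and without that array the adult difference had an adjusted p of 0.208. Leaving out adult replicate 1 also ended it (adjusted p = 0.0571).

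Fdps makes farnesyl diphosphate, the last product shared by sterol and non-sterol branches. It averaged 1228 ± 204 in stem Leydig, 1118 ± 23.8 in progenitor, 847 ± 96.1 in immature, 835 ± 98.4 in adult and 642 ± 8.32 in bone stem cells. Fdps fell in adult cells relative to stem cells, with a log2 change of -0.54 ± 0.12 SE, adjusted p = 0.000886, and was not called in progenitor against stem cells. Its smaller fall in adult against progenitor cells (a log2 change of -0.42 ± 0.14 SE, adjusted p = 0.0277) was lost when any 1 of the 3 progenitor arrays, adult replicate 1 or adult replicate 2 was left out (adjusted p = 0.0644, 0.0588, 0.0748, 0.0623 and 0.0817). Pmvk, Mvd and Ggps1 were called in no comparison of Leydig stages. Pmvk, phosphomevalonate kinase, averaged 181 ± 37.5 in stem Leydig, 144 ± 16.1 in progenitor, 126 ± 37.9 in immature, 140.2 ± 17.9 in adult and 143 ± 4.94 in bone stem cells. Mvd, the decarboxylase that follows, averaged 94.3 ± 22.4 in stem Leydig, 89.8 ± 18.3 in progenitor, 64.9 ± 7.66 in immature, 86.1 ± 7.36 in adult and 59.0 ± 3.55 in bone stem cells. Ggps1, which makes the longer prenyl chain used on proteins, averaged 59.9 ± 4.86 in stem Leydig, 53.9 ± 4.92 in progenitor, 48.3 ± 11.5 in immature, 48.3 ± 5.87 in adult and 54.0 ± 4.54 in bone stem cells.

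Among the 11 genes of the squalene and sterol ring steps, Dhcr7 changed most. Dhcr7, the reductase of the final step to cholesterol, had signals of 134, 162, 218, 127 and 137 on the stem Leydig arrays, 1388, 1543 and 1745 on the progenitor arrays, 1189, 1274, 1203 and 1367 on the immature arrays, 1807, 1573, 2469.7 and 1979 on the adult arrays and 133, 152 and 154 on the bone stem arrays. Every progenitor, immature and adult array lay far above every stem array, while the stem Leydig and bone stem arrays overlapped. Dhcr7 was 10.0-fold higher in progenitor than in stem cells (a log2 change of 3.22 ± 0.16 SE, adjusted p = 1.68e-12) and 12.6-fold higher in adult than in stem cells (a log2 change of 3.53 ± 0.14 SE, adjusted p = 4.48e-14). Adult arrays were also above the immature ones (a log2 change of 0.61 ± 0.15 SE, adjusted p = 0.00534). Under quantile normalization that later difference had an adjusted p of 0.0533.

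Sqle, the squalene epoxidase that commits squalene to the ring, went another way. Its signals were 544, 799, 818, 763 and 818 on the stem Leydig arrays, 679.9, 827 and 688 on the progenitor arrays, 407, 426, 411 and 511 on the immature arrays, 480.3, 458, 506 and 617 on the adult arrays and 326, 262 and 287 on the bone stem arrays. Progenitor and stem arrays were high and did not separate, and all immature arrays were below both groups. Sqle fell in immature cells relative to progenitor cells (a log2 change of -0.72 ± 0.15 SE, adjusted p = 0.0169), which was not called without progenitor replicate 2 (adjusted p = 0.115) or without immature replicate 1, 2 or 3 (adjusted p = 0.0545, 0.0566 and 0.0585). It was lower in adult than in progenitor cells (a log2 change of -0.50 ± 0.15 SE, adjusted p = 0.0167) and in adult than in stem cells (a log2 change of -0.52 ± 0.13 SE, adjusted p = 0.00253), where stem replicate 1 overlapped the adult arrays. Its mean was 1.45-fold lower in adult than in stem cells.

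Msmo1, the oxidase that starts the removal of methyl groups from the ring, had signals of 1367, 1823, 1769, 1347 and 1754 on the stem Leydig arrays, 1403, 1690.4 and 1070.5 on the progenitor arrays, 1068, 1052, 1080.0 and 1359.8 on the immature arrays, 1121, 1548, 1275 and 1297 on the adult arrays and 543, 577 and 583 on the bone stem arrays. The bone stem arrays were below every Leydig array, and the Leydig stages overlapped. No step between neighbouring Leydig stages was called for Msmo1. Its F-test over the 4 stages passed at an adjusted p of 0.0397, and was lost in 13 of the 31 alternative settings. Nsdhl, which acts after Msmo1, averaged 398 ± 71.2 in stem Leydig, 419 ± 20.1 in progenitor, 325 ± 57.0 in immature, 311 ± 13.4 in adult and 225 ± 9.81 in bone stem cells. Its lower mean in adult than in stem cells was near the threshold (a log2 change of -0.32 ± 0.12 SE, adjusted p = 0.0409), and 1 stem array overlapped the adult ones. It was lost in 14 of the 31 settings, which include leaving out any 1 adult array or any of stem replicates 2 to 5. Another probe set of Nsdhl was called in progenitor against stem cells, by a log2 change of 0.81 (adjusted p = 0.00257).

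Tm7sf2, a sterol ring reductase, averaged 117 ± 25.4 in stem Leydig, 263 ± 50.8 in progenitor, 292 ± 56.5 in immature, 449 ± 67.8 in adult and 50.1 ± 4.84 in bone stem cells. It rose at the first step (a log2 change of 1.07 ± 0.17 SE, adjusted p = 3.32e-05) and again in adult against immature cells (a log2 change of 0.60 ± 0.16 SE, adjusted p = 0.0105), and was 3.83-fold higher in adult than in stem cells. Ebp, an isomerase that shifts a double bond in the ring, averaged 179 ± 31.2 in stem Leydig, 309 ± 42.3 in progenitor, 296 ± 46.8 in immature, 364 ± 26.1 in adult and 166 ± 16.5 in bone stem cells. Its rise in progenitor against stem cells (a log2 change of 0.74 ± 0.14 SE, adjusted p = 0.000244) was its only called step between neighbouring stages. Lss, which closes squalene epoxide into lanosterol, averaged 133 ± 18.0 in stem Leydig, 208 ± 22.4 in progenitor, 197 ± 28.8 in immature, 201 ± 38.4 in adult and 84.9 ± 15.6 in bone stem cells, with a log2 change of 0.59 ± 0.15 SE, adjusted p = 0.00363 in progenitor against stem cells. Its second, dimmer probe set did not pass that test but was called higher in adult than in immature cells, by a log2 change of 1.31 (adjusted p = 0.000147), and than in progenitor cells, by 0.85 (adjusted p = 0.00974).

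Fdft1, squalene synthase, averaged 325 ± 26.8 in stem Leydig, 419 ± 93.9 in progenitor, 331 ± 46.6 in immature, 493 ± 26.4 in adult and 150.4 ± 14.8 in bone stem cells. Its brightest probe set was called in adult against immature cells (a log2 change of 0.56 ± 0.13 SE, adjusted p = 0.0036) and adult against stem cells (a log2 change of 0.58 ± 0.12 SE, adjusted p = 0.000583) but in no other Leydig comparison. Its second probe set was also called in progenitor against stem cells, by a log2 change of 0.58 (adjusted p = 0.000228), and in immature against progenitor cells, by -0.65 (adjusted p = 0.00443). Cyp51, the demethylase of lanosterol, averaged 624 ± 96.8 in stem Leydig, 936 ± 141 in progenitor, 744 ± 105 in immature, 1081 ± 265 in adult and 241 ± 16.8 in bone stem cells. It rose in progenitor against stem cells (a log2 change of 0.57 ± 0.17 SE, adjusted p = 0.0108), with progenitor replicate 3 just under stem replicate 3, and without progenitor replicate 2 the adjusted p was 0.0689. Its rise in adult against immature cells (a log2 change of 0.51 ± 0.16 SE, adjusted p = 0.0317) was lost in 9 of 31 alternative settings. The other probe set of Cyp51 was called in no comparison of Leydig stages. It had log2 changes of 0.28 in progenitor against stem and 0.31 in adult against immature cells (adjusted p = 0.282 and 0.276). Sc5d, a desaturase of the ring, averaged 175 ± 39.2 in stem Leydig, 271 ± 42.0 in progenitor, 185 ± 37.8 in immature, 165 ± 12.2 in adult and 98.3 ± 2.70 in bone stem cells, and was highest in progenitor cells, with a log2 change of 0.61 ± 0.17 SE, adjusted p = 0.00651 against stem and a log2 change of -0.65 ± 0.17 SE, adjusted p = 0.008 for adult against progenitor cells. Hsd17b7, a ketosteroid reductase of the pathway, averaged 144 ± 53.1 in stem Leydig, 227 ± 27.6 in progenitor, 160.2 ± 31.9 in immature, 196 ± 32.6 in adult and 84.7 ± 0.790 in bone stem cells, with a log2 change of 0.68 ± 0.23 SE, adjusted p = 0.026 in progenitor against stem cells, which was not called without progenitor replicate 1 or 2 (adjusted p = 0.0519 and 0.108). At that step the other probe sets had log2 changes of -0.37 and -0.13 for Sc5d and -0.29 for Hsd17b7, none of them called. Both other probe sets of Sc5d were called in adult against stem cells, by log2 changes of -0.49 and -0.58 (adjusted p = 0.03 and 0.0164).

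**Figure D2:**
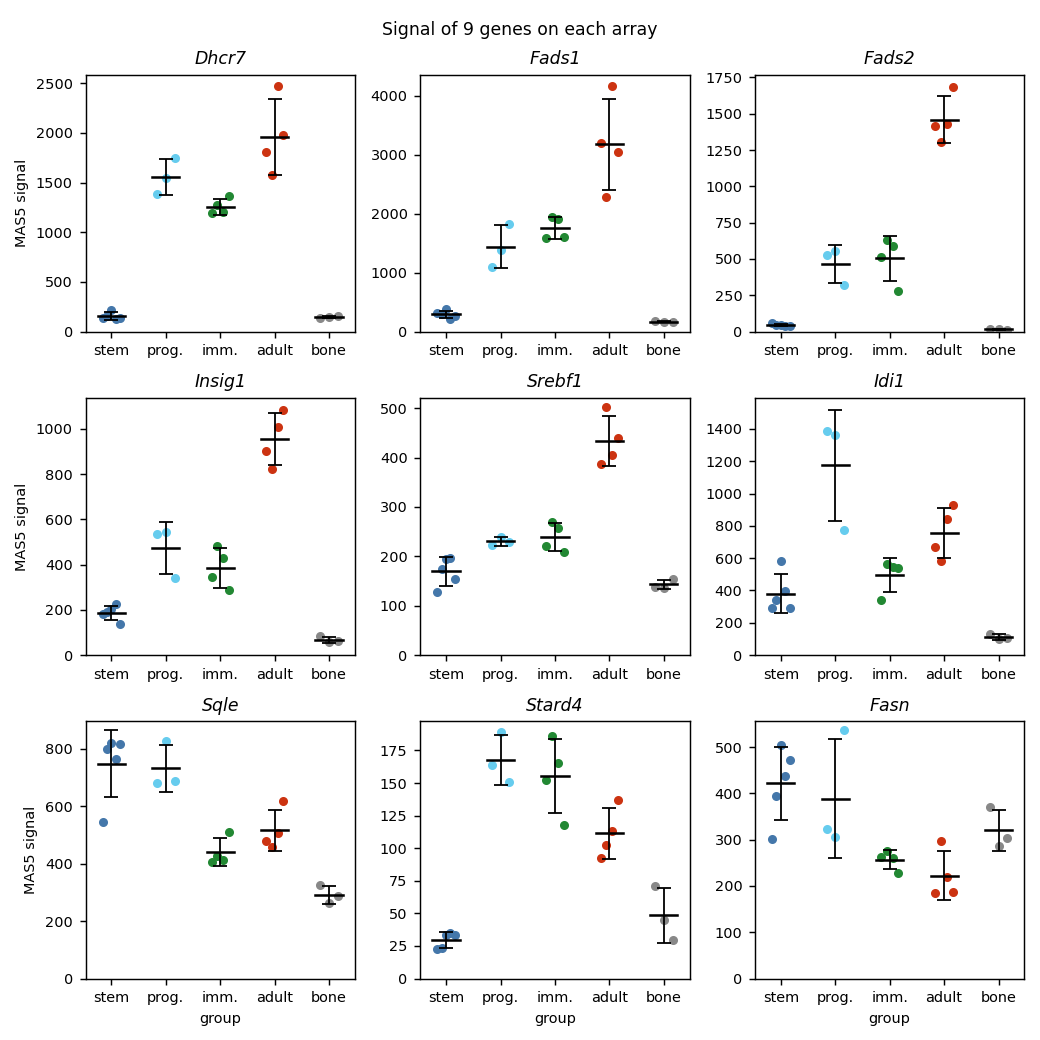
Each panel shows the linear array signal of 1 gene on every array, with a black bar for the group mean and an error bar for the SD (n = 5, 3, 4, 4 and 3). Dhcr7, Fads1, Fads2 and Stard4 are low in stem Leydig arrays and higher in all later stages, Insig1 and Srebf1 are highest in adult arrays, Idi1 is highest in progenitor arrays, and Fasn is lowest on average in adult arrays.

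Of the 6 regulators and carriers, 4 rose in adult against immature cells, where 12.0% of all genes did. Insig1, which holds the SREBP complex back when sterols are plentiful and is itself an SREBP target, had signals of 179.6, 189.5, 202, 224 and 135 on the stem Leydig arrays, 536, 542 and 342 on the progenitor arrays, 346, 483, 428 and 286 on the immature arrays, 903, 822, 1008 and 1085 on the adult arrays and 83.1, 58.7 and 62.0 on the bone stem arrays. The adult arrays were above all others, progenitor and immature arrays overlapped each other above the stem arrays, and bone stem arrays were lowest. Insig1 was 2.54-fold higher in progenitor than in stem cells (a log2 change of 1.26 ± 0.18 SE, adjusted p = 1.27e-05), and 2.47-fold higher in adult than in immature cells (a log2 change of 1.29 ± 0.18 SE, adjusted p = 2.08e-05). Against stem cells the adult mean was 5.13-fold higher.

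Srebf1 encodes the SREBP best known for fatty acid genes. Its signals were 127, 174, 196, 197 and 155 on the stem Leydig arrays, 223, 239.8 and 228 on the progenitor arrays, 220.0, 269.5, 257 and 209 on the immature arrays, 386, 502, 405 and 439 on the adult arrays and 138, 137 and 154 on the bone stem arrays. Adult arrays lay above all others, and the progenitor arrays lay narrowly above the stem arrays. Srebf1 rose in adult relative to immature cells (a log2 change of 0.82 ± 0.13 SE, adjusted p = 8.94e-05) and by less at the first step (a log2 change of 0.42 ± 0.13 SE, adjusted p = 0.0157), which without progenitor replicate 2 had an adjusted p of 0.0592. Srebf2, the SREBP best known for sterol genes, had signals of 273, 324, 383, 366 and 300.2 on the stem Leydig arrays, 371, 490.2 and 318 on the progenitor arrays, 335, 397, 463 and 279.9 on the immature arrays, 542, 578, 495 and 565 on the adult arrays and 255, 191 and 189 on the bone stem arrays. Again the adult arrays were above those of every other group, while stem, progenitor and immature arrays overlapped. Srebf2 rose in adult relative to immature cells (a log2 change of 0.57 ± 0.16 SE, adjusted p = 0.0123), with an adjusted p of 0.0523 without immature replicate 4.

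Scap, the escort of the SREBPs, averaged 264 ± 34.3 in stem Leydig, 279.7 ± 23.2 in progenitor, 221 ± 15.6 in immature, 316 ± 30.8 in adult and 229.7 ± 7.60 in bone stem cells, and rose in adult relative to immature cells (a log2 change of 0.49 ± 0.11 SE, adjusted p = 0.00338). The other, dimmer probe set of Scap was not called at that step (a log2 change of 0.06, adjusted p = 0.865). On the mean of its probe sets the F-test of Scap over the stages was lost (adjusted p = 0.0817). Insig2, the second Insig, averaged 143 ± 18.98 in stem Leydig, 144 ± 5.80 in progenitor, 128 ± 9.39 in immature, 156 ± 9.82 in adult and 202 ± 11.0 in bone stem cells, and its brightest probe set was called in no comparison of Leydig stages. Its other probe set was higher in adult than in immature, stem and progenitor cells, by log2 changes of 0.46, 0.42 and 0.47 (adjusted p = 0.041, 0.0249 and 0.0438). Stard4, a soluble carrier of cholesterol between membranes, had signals of 22.4, 23.6, 33.1, 34.7 and 33.6 on the stem Leydig arrays, 164, 189 and 151 on the progenitor arrays, 152, 186, 166 and 118 on the immature arrays, 92.1, 102, 113 and 137 on the adult arrays and 70.7, 45.2 and 29.3 on the bone stem arrays. All progenitor, immature and adult arrays were above all stem arrays, and all progenitor arrays were above the adult arrays. Stard4 was 5.69-fold higher in progenitor than in stem cells (a log2 change of 2.02 ± 0.19 SE, adjusted p = 2.93e-08), and 3.78-fold higher in adult than in stem cells (a log2 change of 1.48 ± 0.17 SE, adjusted p = 3.89e-07). The lower adult level after the progenitor stage did not pass the test (a log2 change of -0.54 ± 0.20 SE, adjusted p = 0.0518 for adult against progenitor cells). The other probe sets of Stard4 moved less at the first step, by log2 changes of 0.33 and 0.77, and only the second of these was called.

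Fads2 and Fads1 rose most among the fatty acid genes, both in progenitor and in adult against stem cells. Fads2, the desaturase that starts the making of long polyunsaturated fatty acids, had signals of 57.0, 45.8, 45.6, 42.1 and 41.3 on the stem Leydig arrays, 531, 554 and 318 on the progenitor arrays, 516, 632, 588 and 281 on the immature arrays, 1417, 1302, 1432 and 1686 on the adult arrays and 15.3, 18.6 and 13.8 on the bone stem arrays. Fads1, the desaturase of a later step, had signals of 310.4, 305, 379, 206 and 269 on the stem Leydig arrays, 1103, 1384 and 1831 on the progenitor arrays, 1595, 1939, 1909 and 1595 on the immature arrays, 3191, 2289, 4156 and 3051 on the adult arrays and 173, 157 and 162 on the bone stem arrays. For both genes the groups formed the same order, with adult arrays on top, progenitor and immature arrays overlapping in the middle, stem arrays under them and bone stem arrays lowest. Fads2 was 10.1-fold higher in progenitor than in stem cells (a log2 change of 2.92 ± 0.21 SE, adjusted p = 4.69e-10) and 2.89-fold higher in adult than in immature cells (a log2 change of 1.56 ± 0.20 SE, adjusted p = 8.97e-06). Over the whole lineage the adult mean of Fads2 was 31.5-fold that of stem cells (a log2 change of 4.56 ± 0.19 SE, adjusted p = 6.54e-14).

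Fads1 was 4.90-fold higher in progenitor than in stem cells (a log2 change of 2.23 ± 0.19 SE, adjusted p = 8.08e-09), 1.80-fold higher in adult than in immature cells (a log2 change of 0.82 ± 0.18 SE, adjusted p = 0.00266) and 10.8-fold higher in adult than in stem cells (a log2 change of 3.36 ± 0.17 SE, adjusted p = 1.9e-12). Fads1 and Fads2 are neighbours on chromosome 1 in RefSeq, with their promoters (shown above) on opposite strands, and Fads3 lies next to Fads2. Fads3, the third gene of this cluster and not one of the 31, ran the other way. It averaged 44.3 ± 8.43 in progenitor cells, against 497 ± 106 in stem cells, with a log2 change of -3.07 ± 0.17 SE, adjusted p = 1.27e-11.

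The synthase and carboxylase were called higher in no comparison of Leydig stages. Fasn, fatty acid synthase, had signals of 302, 395, 505, 437 and 473 on the stem Leydig arrays, 323, 306 and 537 on the progenitor arrays, 262, 275, 261 and 227 on the immature arrays, 184, 298, 219 and 188 on the adult arrays and 371, 286 and 304 on the bone stem arrays. The adult arrays lay below all stem and progenitor arrays, and overlapped the immature ones. Fasn was lower in adult than in stem cells (a log2 change of -0.88 ± 0.17 SE, adjusted p = 0.000235) and in adult than in progenitor cells (a log2 change of -0.74 ± 0.20 SE, adjusted p = 0.00723). Another probe set of Fasn was called higher in stem Leydig than in bone stem cells (adjusted p = 0.000431), where the brightest was not (a log2 change of 0.37 ± 0.19 SE, adjusted p = 0.201). Progenitor replicate 3 was its highest array, and without that array the difference from progenitor cells had an adjusted p of 0.0729. Acaca, the acetyl-CoA carboxylase that feeds Fasn, averaged 291 ± 20.5 in stem Leydig, 336 ± 99.7 in progenitor, 286 ± 33.4 in immature, 252 ± 17.0 in adult and 186 ± 17.6 in bone stem cells, and was called at no Leydig comparison.

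Acly, which makes cytosolic acetyl-CoA for both pathways, averaged 779.6 ± 77.8 in stem Leydig, 1254 ± 118 in progenitor, 1306 ± 75.5 in immature, 1850.1 ± 282 in adult and 458 ± 101 in bone stem cells. It rose in progenitor against stem cells (a log2 change of 0.68 ± 0.14 SE, adjusted p = 0.000636) and in adult against immature cells (a log2 change of 0.49 ± 0.14 SE, adjusted p = 0.0134). Without adult replicate 3 the second rise had an adjusted p of 0.0544, and under quantile normalization of 0.19. Scd, the desaturase that makes oleate, had low signals of 35.2, 72.7, 61.8, 38.0 and 35.3 on the stem Leydig arrays, 88.8, 106 and 57.0 on the progenitor arrays, 91.1, 68.8, 110.2 and 51.6 on the immature arrays, 87.2, 85.6, 78.0 and 98.2 on the adult arrays and 20.4, 4.40 and 5.90 on the bone stem arrays. Progenitor arrays overlapped the stem arrays, the adult arrays lay above them, and bone stem arrays were lowest. Its rise in progenitor cells was at the threshold (a log2 change of 0.64 ± 0.24 SE, adjusted p = 0.0449) and was lost in 15 of 31 alternative settings, while in adult against stem cells it held in all of them (a log2 change of 0.71 ± 0.22 SE, adjusted p = 0.0131). Elovl6, an elongase, averaged 113 ± 47.4 in stem Leydig, 99.3 ± 21.4 in progenitor, 102 ± 25.1 in immature, 127 ± 19.6 in adult and 50.5 ± 2.52 in bone stem cells, and no Leydig comparison was called for it.

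In progenitor against stem Leydig cells, 17 of the 31 genes rose and 0 fell, which is 54.8% higher, against 26.8% of all genes called higher and 18.5% called lower. The median log2 change was 0.51 over the 31 genes and 0.08 over all genes. The genes that rose were 3 of 7 of the mevalonate steps (Acat2, Mvk, Idi1), 7 of 11 of the sterol ring steps, 3 of 6 regulators (Srebf1, Insig1, Stard4) and 4 of 7 fatty acid genes (Acly, Scd, Fads1, Fads2). The median log2 change of the mevalonate steps was -0.05. Marker sums of other cells that did not overlap were leukocyte sums of 3657 to 5088 on progenitor, against 163 to 221 on stem Leydig arrays, endothelial sums 751 to 1446, against 24.6 to 126, red cell sums 3385 to 5221, against 5.90 to 20.7, germ cell sums 139.9 to 293, against 13.5 to 24.3, Sertoli cell sums 349 to 729, against 73.1 to 102 and smooth muscle sums 353 to 419, against 5433 to 11846, while the fat cell sums overlapped. Of the 5 measured germ cell markers, 1 was called higher and 0 lower, and of the 5 Sertoli cell markers 2 were higher and 0 lower. The part of other cells in the result was not tested. Centring each array on its median lowered the count to 11 calls.

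Between progenitor and immature cells little was called. Of the 31 genes 0 were higher in immature cells and 2 were lower, Idi1 and Sqle, in limma at adjusted p under 0.05, against 1.33% of all genes higher and 0.612% lower. 25 of the 31 log2 changes were below 0, with a median of -0.20, against 0 over all genes. At an unadjusted p under 0.05, 0 genes were higher and 9 were lower. The shares of all genes below 0, or passing that unadjusted p, were not counted, so neither count has a background. The calls of Idi1 and Sqle were both lost when only these 2 groups were fitted. Of the markers of other cells, those whose sums did not overlap were endothelial sums of 180.4 to 593 on immature, against 751 to 1446 on progenitor arrays and germ cell sums 329 to 856, against 139.9 to 293, and their part in these calls was not tested.

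In adult against immature cells 11 of the 31 genes rose and 0 fell. That is 35.5% higher, against 12.0% of all genes higher and 17.3% lower, with a median log2 change of 0.29, against -0.06 over all genes. By role, 4 of 6 regulators rose (Srebf1, Srebf2, Scap, Insig1), 4 of 11 sterol ring genes (Fdft1, Cyp51, Tm7sf2, Dhcr7), 3 of 7 fatty acid genes (Acly, Fads1, Fads2) and 0 of 7 mevalonate genes. Among markers of other cells, those with sums that did not overlap were red cell sums of 269 to 697 on adult, against 2447 to 5242 on immature arrays and Sertoli cell sums 1042 to 2071, against 610.5 to 912, while the leukocyte, endothelial, germ cell, smooth muscle and fat cell sums overlapped. Of the 5 measured Sertoli markers, 1 was called higher and 0 lower, with a median log2 change of 0.02. The part of other cells in these changes was not tested.

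Across the whole lineage, in adult against stem cells, 16 of the 31 genes rose and 4 fell. The background was 27.7% of all genes higher and 26.0% lower, against 51.6% and 12.9% of these genes. Fdps, Nsdhl, Sqle and Fasn were the 4 that fell. The rises were led by Fads2, Dhcr7, Fads1 and Insig1, with Tm7sf2, Stard4, Srebf1 and Acly next by log2 change. This comparison and that of progenitor cells share the stem arrays. Other cells' markers with sums that did not overlap were leukocyte sums of 957 to 2331 on adult, against 163 to 221 on stem Leydig arrays, endothelial sums 459.7 to 2291, against 24.6 to 126, red cell sums 269 to 697, against 5.90 to 20.7, germ cell sums 672 to 1329.5, against 13.5 to 24.3, Sertoli cell sums 1042 to 2071, against 73.1 to 102, smooth muscle sums 276 to 1320.3, against 5433 to 11846 and fat cell sums 70.2 to 125, against 41.1 to 66.6, and what these add to the changes was not tested. Of the 7 fat cell markers, 1 was called higher and 1 lower here, with a median log2 change of 0.07. In adult cells 5 of these 7 averaged under a signal of 16. Of the 5 measured Sertoli cell markers, 2 were called higher and 0 lower.

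In adult against progenitor cells the genes split, with 7 higher and 6 lower, against 14.0% of all genes higher and 19.6% lower. As shares these are 22.6% and 19.4%, the second near its background. The genes higher in adult cells were Srebf1, Srebf2, Insig1, Tm7sf2, Acly, Fads1 and Fads2, and those lower were Mvk, Fdps, Sqle, Nsdhl, Sc5d and Fasn. The call of Srebf2 was near the threshold (a log2 change of 0.47 ± 0.17 SE, adjusted p = 0.0451). It was lost in 16 of the 31 alternative settings, which include leaving out any 1 adult array. Fads2 had the largest rise (a log2 change of 1.64 ± 0.21 SE, adjusted p = 7.25e-06), with a ratio of means of 3.12. Under median centring the split was 8 higher and 1 lower. Marker sums that did not overlap were leukocyte sums of 957 to 2331 on adult, against 3657 to 5088 on progenitor arrays, red cell sums 269 to 697, against 3385 to 5221, germ cell sums 672 to 1329.5, against 139.9 to 293 and Sertoli cell sums 1042 to 2071, against 349 to 729, and their part was not tested. Of the 5 measured Sertoli cell markers, 1 was called higher and 0 lower, with a median log2 change of -0.15. Of the 5 measured germ cell markers, 4 were higher and 1 lower. Leaving out progenitor replicate 3, the array with the high actin ratio, ended the calls of Mvk, Fdps, Nsdhl, Fasn and Srebf2, and leaving out progenitor replicate 2 ended those of Fdps, Sqle and Nsdhl.

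**Figure D3:**
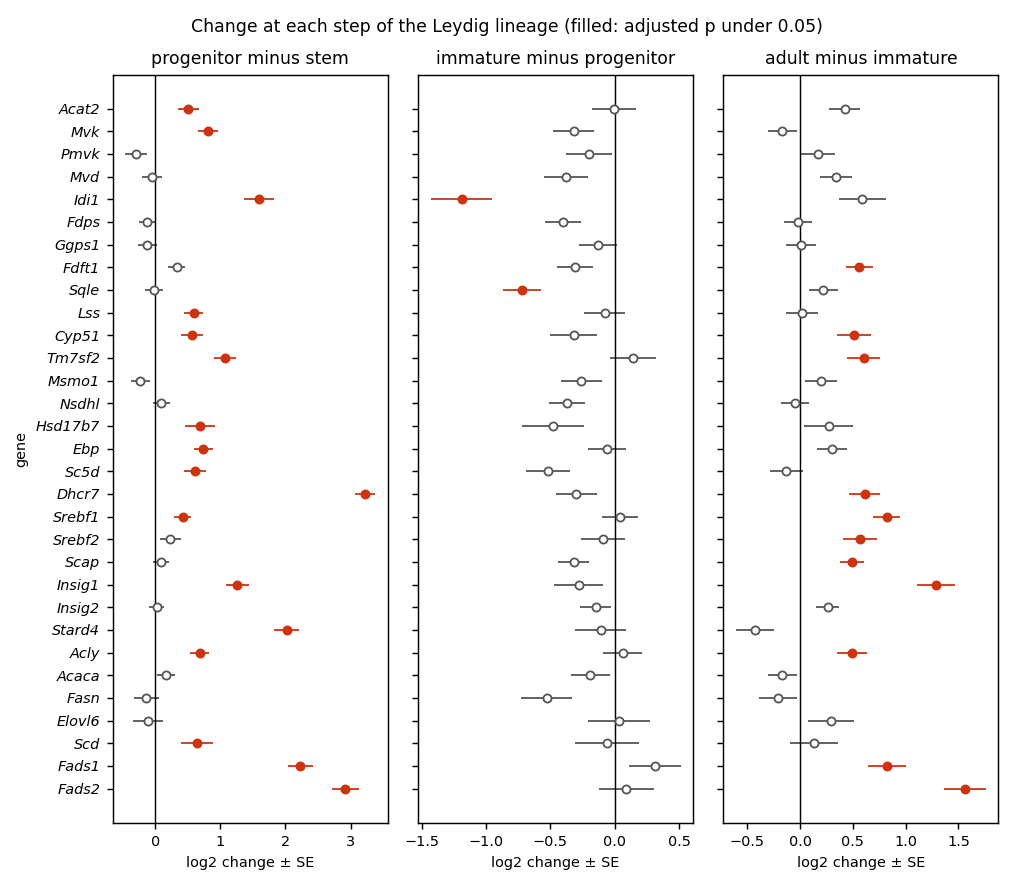
Log2 changes of the 31 genes, with SE, at the steps progenitor minus stem, immature minus progenitor and adult minus immature. Filled points passed an adjusted p of 0.05. The first panel holds 17 filled points, all right of 0, the second 2, both left of 0 (Idi1 and Sqle), and the third 11, all right of 0.

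Genes outside the 31 were read from lists of related pathways. Of the 5 measured genes of other sterol synthesis and uptake, 4 rose and 0 fell in progenitor against stem cells, and 2 rose and 0 fell in adult against immature cells. The all-gene shares were 26.8% of all genes higher and 18.5% lower at the first of these steps, and 12.0% of all genes higher and 17.3% lower at the second. Acat1, the mitochondrial thiolase, averaged 1726 ± 191 in adult, against 308 ± 32.9 in stem cells (a log2 change of 2.43 ± 0.12 SE, adjusted p = 7.11e-13). Cyb5b, an outer mitochondrial membrane cytochrome b5, averaged 769.8 ± 62.5, against 148 ± 38.8 (a log2 change of 2.29 ± 0.16 SE, adjusted p = 1.43e-10).

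Among 11 measured genes of SREBP processing and sterol sensing, 4 were higher and 2 lower in progenitor than in stem cells, and 1 higher and 3 lower in adult than in immature cells, against the same all-gene shares. Erlin2 and Erlin1, membrane proteins that take part in sterol-driven protein breakdown, fell in adult against immature cells, by 0.61 and 0.60 on the log2 scale (adjusted p = 0.000627 and 0.00651). Mbtps2, a protease that releases SREBP, averaged 99.3 ± 5.23 in adult, against 184 ± 29.6 in stem cells (a log2 change of -0.78 ± 0.14 SE, adjusted p = 8.12e-05). Nr1h3, the oxysterol receptor LXR alpha, averaged 66.9 ± 5.06 in adult, against 24.3 ± 6.91 in stem cells (a log2 change of 1.05 ± 0.17 SE, adjusted p = 2.33e-05). In adult against stem cells, 3 of these genes rose and 1 fell, against 27.7% of all genes higher and 26.0% lower.

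Bone stem cells had lower levels of most of these genes than stem Leydig cells. In stem Leydig against bone stem cells 20 of the 31 genes were higher and 1 was lower, which is 64.5% higher, against 9.73% of all genes higher and 14.1% lower. The median log2 difference was 0.71, against 0 over all genes. By role the higher genes were 4 of 7 mevalonate genes, 8 of 11 sterol ring genes, 2 of 6 regulators and 6 of 7 fatty acid genes. In each of the 21 called genes the arrays of the groups did not overlap, but how often this holds over all called genes was not counted. Bone stem replicates 2 and 3 lay close together for genes such as Star (15.9 and 15.9, against 442 in replicate 1). The 3 bone stem arrays may therefore hold fewer than 3 distinct samples. With the closest pairs of arrays averaged, Lss, Mvd and Srebf2 were not called in limma (adjusted p = 0.0542, 0.0796 and 0.0679). The calls of Mvd, Srebf2 and Lss were each lost when a single bone stem array was left out, with adjusted p-values of 0.0554, 0.0732 and 0.111 without bone stem replicate 3.

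The 3 smallest adjusted p-values belonged to Msmo1, Acat2 and Sqle. Msmo1 was 2.84-fold higher in stem Leydig than in bone stem cells (a log2 change of 1.47 ± 0.15 SE, adjusted p = 5.25e-07), and Acat2 3.03-fold higher (a log2 change of 1.48 ± 0.16 SE, adjusted p = 8.1e-07). Sqle, which fell later in the lineage, was 2.57-fold higher in stem Leydig cells (a log2 change of 1.30 ± 0.14 SE, adjusted p = 8.39e-07), and Idi1 3.39-fold higher (a log2 change of 1.59 ± 0.23 SE, adjusted p = 3.79e-05). Scd averaged 48.6 ± 17.5 in stem Leydig cells, against 10.2 ± 8.85 in bone stem cells, where all arrays were near the bottom of the scale. Insig2 was lower in stem Leydig cells (a log2 change of -0.47 ± 0.11 SE, adjusted p = 0.00479), the opposite direction to Insig1 (a log2 change of 1.26 ± 0.18 SE, adjusted p = 3.7e-05). The other probe set of Insig2 had a log2 change of -0.11 (adjusted p = 0.748), and on the mean of its probe sets the call was lost (adjusted p = 0.0662). Dhcr7, so strongly changed within the Leydig lineage, averaged 156 ± 37.5 in stem Leydig cells, against 146 ± 11.6 in bone stem cells, with a log2 change of 0.06 ± 0.16 SE, adjusted p = 0.866.

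Markers of other cells whose sums did not overlap between these groups had leukocyte sums of 163 to 221 on stem Leydig, against 8880.2 to 10453 on bone stem arrays, Sertoli cell sums 73.1 to 102, against 46.0 to 66.8 and fat cell sums 41.1 to 66.6, against 457 to 1139, while the endothelial, red cell, germ cell and smooth muscle sums overlapped. In bone stem cells 4 of the 7 fat markers and 5 of the 5 Sertoli markers averaged under a signal of 16. In stem Leydig cells 4 of the 5 Sertoli markers did. Actin 3' to 5' ratios were 1.03 to 1.84 in stem Leydig and 2.38 to 2.95 in bone stem arrays. The part of these in the difference was not tested.

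**Figure D4:**
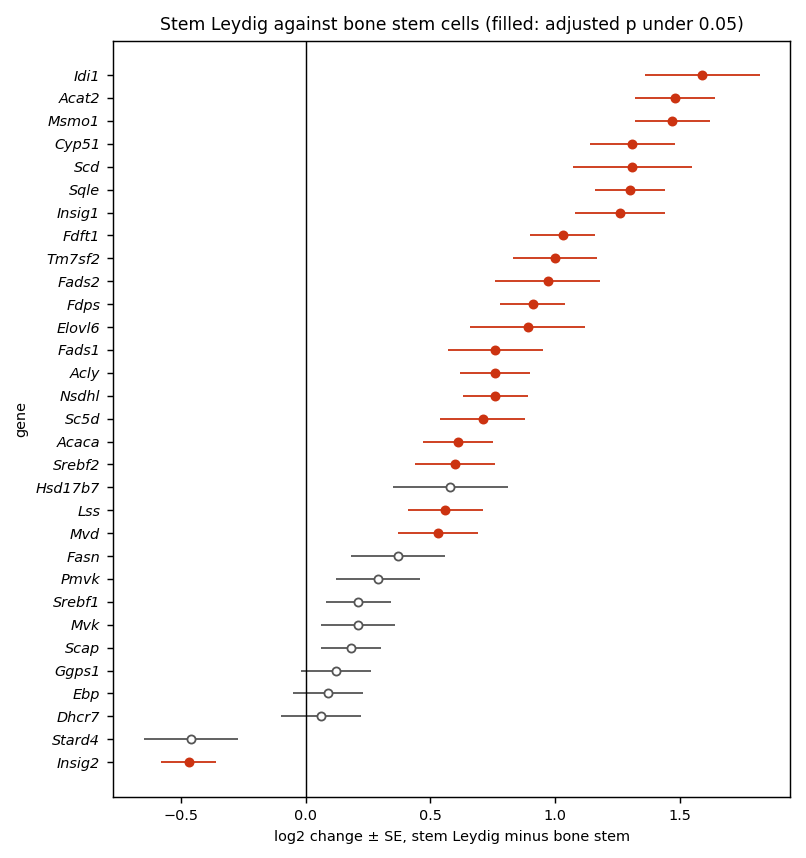
Log2 difference, stem Leydig minus bone stem, of the 31 genes with SE, sorted by size. Filled points passed an adjusted p of 0.05. Of 21 filled points, 20 lie right of 0, with Idi1 at the top at 1.59, and Insig2 lies left of 0 at -0.47.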

How the data were processed

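Array signals of 19 samples were analysed. Each deposited value is a linear intensity of a probe set on an array; the submitters' processing notes name MAS5 and GCOS, without versions. RNA was extracted with Trizol and columns and labelled with biotin, per the labels' protocols. The signals were scaled before deposit, since each array has a 2% trimmed mean of 99.99. The median signal of an array was 18.9 to 36.6, detection calls were not used, and the number of arrays limits the precision.

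Groups were taken from the labels, which name no animal or culture of origin, so a p-value covers the spread among these replicates alone, which may be technical. log2(signal + 16) was fitted in limma 3.58.1 (R 4.3.3), with lmFit and eBayes with an intensity trend, over 5 group means and all 19 arrays, with Benjamini-Hochberg adjustment over 31042 non-control probe sets. Shares of all genes called count the brightest probe set of each of 14217 genes. The fit was tested on simulated data with known changes.

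The genes and lists were chosen with earlier results of these data known. Values on every array are printed, in each comparison, for the 3 called genes with the smallest adjusted p whose groups do not overlap, and for Insig1, Srebf1, Srebf2, Stard4, Fasn and Scd whatever their result. From each list of other pathway genes, the 2 called genes with the smallest adjusted p in a comparison could be named. Gene symbols come from the platform annotation, and 20758 of the 20826 single-symbol probe sets matched a RefSeq gene table. The array's genome build is not given in the sources used here, so the only coordinates are those of RefSeq promoters on GRCr8. Alternatives were other scalings, pseudocounts of 1 and 64, a filter on dim probe sets, array weights, fits of the compared groups only, a replicate block, the mean of a gene's probe sets, a 2-fold minimum, leaving out arrays and averaging the closest pairs of arrays. Replicate numbers did not pair the samples.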

Additional observations from a re-analysis of the deposited data

Results flagged for a closer look

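In 8 of 93 sets of 4 or 5 arrays of 1 gene in 1 group, a single array lay far from the others by Dixon's 95% test. Chance flags about 1 in 20 such sets. Pmvk had a signal of 246 in stem Leydig replicate 3, above the 151 to 172 of the other arrays of that group. In immature replicate 1 the signal of Idi1 was 341, below the range of 540.3 to 563 on the other arrays. Sqle had a signal of 544 in stem Leydig replicate 1, below the 763 to 818 of the other arrays of that group. In stem Leydig replicate 3 the signal of Tm7sf2 was 162, above the range of 99.9 to 112 on the other arrays. Msmo1 had a signal of 1359.8 in immature replicate 4, above the 1052 to 1080.0 of the other arrays of that group. In immature replicate 4 the signal of Insig2 was 114, below the range of 131 to 134 on the other arrays. Scap had a signal of 203 in stem Leydig replicate 3, below the 275 to 284 of the other arrays of that group. In immature replicate 3 the signal of Acaca was 236, below the range of 299 to 308 on the other arrays. Stem Leydig replicate 3 appears for 3 of these genes and immature replicate 4 for 2.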

How the results depend on the processing

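Over 31 alternative settings no called gene changed direction. Of the calls, 10 of 17 in progenitor against stem cells, 0 of 2 in immature against progenitor, 7 of 11 in adult against immature, 19 of 20 in adult against stem, 5 of 13 in adult against progenitor, 16 of 21 in stem Leydig against bone stem cells and 19 of 24 in the F-test held in every one of them. Centring arrays on their median gave a median log2 change of all genes of -0.14 in progenitor against stem cells (0.08 as deposited), and of 0.12 in adult against immature and against progenitor cells (-0.06 as deposited). It left 11 calls in progenitor against stem cells (10 higher, and Pmvk lower) and 1 in immature against progenitor cells. That last comparison had 5 calls with array weights, 0 when only its 2 groups were fitted and 1 with the closest pairs of arrays averaged. Those pairs were immature replicates 2 and 3 and bone stem replicates 2 and 3. Requiring a 2-fold change left 7 calls in progenitor against stem, 1 in immature against progenitor, 2 in adult against immature, 8 in adult against stem, 3 in adult against progenitor and 8 in stem Leydig against bone stem cells. Leaving out each array in turn gave 12 to 18 calls in progenitor against stem, 0 to 2 in immature against progenitor, 9 to 13 in adult against immature, 19 to 21 in adult against stem, 9 to 14 in adult against progenitor and 19 to 22 in stem Leydig against bone stem cells, and 22 to 25 in the F-test. The count in immature against progenitor cells was 0 without progenitor replicate 2 or immature replicate 1, and 1 without progenitor replicate 1, immature replicate 2 or immature replicate 3. The cause of these moves was not tested, except that fitting fewer groups leaves fewer arrays. With a replicate block 100 of the 108 calls held, with 15 calls in progenitor against stem cells. Samples share only a number there, since correlations of same-numbered arrays ranged from -0.269 to 0.264. In other probe sets of these genes, 22 calls were shared in direction, 24 were made by the brightest set only, 11 by the other only and 0 in opposite directions. Low signals such as those of Scd and Fads2 in bone stem cells limit the size of their changes.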

Other observations

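Genes around the 31 also changed. Of 5 measured genes of enzymes of NADPH supply, 5 rose and 0 fell in adult against immature cells, where 12.0% of all genes higher and 17.3% lower were called. Tkt, a pentose phosphate enzyme, averaged 1885 ± 194 in adult, against 1044 ± 126 in immature cells (a log2 change of 0.85 ± 0.13 SE, adjusted p = 7.72e-05), and Taldo1 averaged 1064 ± 93.7, against 590.4 ± 37.5 (a log2 change of 0.83 ± 0.14 SE, adjusted p = 0.000186). Me1, the cytosolic malic enzyme, averaged 2198 ± 353 in adult, against 689 ± 131 in stem cells (a log2 change of 1.66 ± 0.16 SE, adjusted p = 1.89e-08).

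Other fatty acid genes went both ways, with 8 higher and 7 lower of 23 measured in progenitor against stem cells, where 26.8% of all genes higher and 18.5% lower were called. Hacd1, a dehydratase of fatty acid elongation, averaged 30.9 ± 9.76 in adult, against 815 ± 186 in stem cells (a log2 change of -4.14 ± 0.24 SE, adjusted p = 1.2e-11), while its relative Hacd2 averaged 1000.0 ± 116, against 170.1 ± 36.4 (a log2 change of 2.46 ± 0.12 SE, adjusted p = 1.01e-12). Mid1ip1, which aids acetyl-CoA carboxylase, averaged 1194 ± 79.2 in progenitor, against 277 ± 37.3 in stem cells (a log2 change of 2.05 ± 0.12 SE, adjusted p = 1.79e-11), and fell in immature cells (a log2 change of -0.89 ± 0.12 SE, adjusted p = 0.000671). Slc25a1, the citrate exporter of mitochondria, averaged 921 ± 57.3 in adult, against 504 ± 107 in immature cells (a log2 change of 0.87 ± 0.14 SE, adjusted p = 8.72e-05). On the non-sterol branches, 3 higher and 4 lower of 9 measured genes were called in adult against stem cells, against 27.7% of all genes higher and 26.0% lower, and Nus1, of the dolichol branch, averaged 145 ± 30.4, against 385 ± 76.2 (a log2 change of -1.32 ± 0.16 SE, adjusted p = 6.99e-07).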
